A study of Mus musculus with 123 samples.

Results

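Nts, Vip, Adcyap1, Cck, Crh, Vgf and Scg2 are neuropeptide and granin genes that sensory neurons can express after their axon is cut. They were followed here by their gene symbols, 7 of the 24134 genes in the deposited tables, in neurons of mouse dorsal root ganglia (DRG) after sciatic nerve transection (SNT). The right sciatic nerve of 2 month old mice was transected, and the SNT side was set against the control side, the ganglia of the opposite, uncut side of the same mice, so no neuron came from an unoperated mouse. At day 3 the mice were F1 offspring of a CAST/Eij father and a C57BL/6 mother, female by the authors' methods. Reads were single and 50 bp long, and 41 SNT-side and 18 control-side neurons were kept, together with 3 pooled libraries a side. At day 7 the mice were C57BL/6, reads were paired and 75 bp long, and 33 SNT-side neurons (16 from female and 17 from male mice) and 14 control-side neurons (7 and 7) were kept. Neurons were picked by hand from dissociated lumbar ganglia and amplified with Smart-seq2, which copies full-length transcripts and carries no molecular identifiers. Some axons of these ganglia do not run in the sciatic nerve, so the SNT side can hold neurons whose axon was not cut.

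Neuropeptides are made as large precursors, cut by convertases in the secretory pathway, stored in dense-core vesicles and released to act on G protein-coupled receptors. Nts encodes the precursor of neurotensin, and Adcyap1 that of PACAP, a relative of VIP, the product of Vip. Cck encodes the precursor of cholecystokinin, Crh that of corticotropin-releasing hormone, and Vgf and Scg2 (secretogranin II) encode granin-family proteins of the vesicle core that are themselves cut into peptides. Axotomised sensory neurons are known for a change of transmitter phenotype, in which galanin (Gal) and neuropeptide Y (Npy) are induced and CGRP (Calca) and substance P (Tac1) decline. Atf3 is a transcription factor induced by axon injury and widely used to mark injured sensory neurons.

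The stretches of 250 bases before the annotated start of 4 members are shown so that they can be read side by side. Nts and Adcyap1 transcripts were mostly high in the same SNT-side neurons. Scg2 was also read in those neurons at day 3 and was low in most of them at day 7. Vip was read in few SNT-side neurons at day 3 and in none at day 7. They come from RefSeq on GRCm38.p6 and not from the build to which the reads were aligned, mm9. Nts lies on the minus strand at chr10:102490419-102490668, Adcyap1 on the plus strand at chr17:93198767-93199016, Scg2 on the minus strand at chr1:79440027-79440276 and Vip on the plus strand at chr10:5638968-5639217. Each is printed 5′ to 3′ in the direction of the gene, and capitals mark matches on either strand to the AP-1 motif TGANTCA, the cAMP response element (CRE) TGACGTCA or its shorter core TGACGT, which lies within the CRE.
Nts: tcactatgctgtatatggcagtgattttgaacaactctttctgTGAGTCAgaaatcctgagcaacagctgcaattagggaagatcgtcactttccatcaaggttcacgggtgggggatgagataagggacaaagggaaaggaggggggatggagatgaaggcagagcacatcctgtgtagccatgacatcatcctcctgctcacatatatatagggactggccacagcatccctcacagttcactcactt
Adcyap1: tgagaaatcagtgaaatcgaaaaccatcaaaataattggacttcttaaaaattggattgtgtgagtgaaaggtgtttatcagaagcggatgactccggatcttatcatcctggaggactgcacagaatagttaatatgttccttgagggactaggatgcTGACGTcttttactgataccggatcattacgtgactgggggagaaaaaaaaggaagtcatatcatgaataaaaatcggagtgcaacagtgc
Scg2: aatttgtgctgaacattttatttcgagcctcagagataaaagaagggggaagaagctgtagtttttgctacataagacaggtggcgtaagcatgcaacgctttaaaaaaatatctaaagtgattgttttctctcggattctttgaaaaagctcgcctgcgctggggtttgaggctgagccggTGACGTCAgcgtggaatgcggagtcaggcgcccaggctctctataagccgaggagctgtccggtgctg
Vip: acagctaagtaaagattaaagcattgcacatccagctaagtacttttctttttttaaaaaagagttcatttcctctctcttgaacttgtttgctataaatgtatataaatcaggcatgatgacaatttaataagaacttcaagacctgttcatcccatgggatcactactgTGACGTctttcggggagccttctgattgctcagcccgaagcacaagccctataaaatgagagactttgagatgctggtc
In windows of 300 bases that also take in the first 50 bases of the transcript, Nts held an AP-1 motif 207 bases before the start. Vip held TGACGT 79 bases before the start, and Scg2 held the whole CRE 68 bases before it. Adcyap1 has 2 windows, and the window shown, taken for having at least as many matches as the other, held TGACGT 91 bases before the start. Matches in its other window are not given. Over 32851 windows of the same length, 7.81% held the AP-1 motif, 7.51% held TGACGT and 1.79% held the CRE. The window of Cck held none of these letters. The matches are a description of the sequence, and no binding was measured.

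Depth and purity of the libraries set the frame for these genes. The kept neurons held totals of 261351 to 1849130 counts and the pooled libraries 563462 to 2003817, and at day 3 the SNT-side neurons were deeper (median 1323932) than the control-side neurons (862619). Values are counts scaled to 1000000 per library (CPM) without correction for gene length, so levels were compared between sides for 1 gene and not between genes. All 106 kept cells had Nefh, P2rx3, Calca or Th, markers of sensory neuron classes, above 10 CPM. All 10 glial markers looked at were also above 10 CPM in some cell of each group, with summed levels of 507 to 14492 CPM. Their median was 3770 CPM on the control side and 3813 CPM on the SNT side at day 3, but 5221 and 1499 CPM at day 7, and the part of this in the day 7 values of the members was not tested. Summed markers of immune cells, of neutrophils or of erythrocytes passed 100 CPM in 1 SNT-side cell at day 3, in 4 at day 7 and in none of the control side, and without these cells (a step added after seeing the data) the counts of members that were higher by the 2-fold and 20-point limits below were the same. For the pooled libraries the name of the column gave the side, S or N, although the identifiers above these 6 columns belong to samples titled for the opposite side. If the identifiers were right and the names wrong, every pooled difference below would point the other way. In the libraries named for the SNT side Atf3 was at 1619, 1372 and 1409 CPM and in those named for the control side at 8.25, 21.5 and 10.6 CPM.

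In pooled neurons at day 3, neurotensin and PACAP transcripts were low on the control side and rose to means of 692 and 731 CPM on the SNT side. Vgf rose 4.14 times by the ratio of the summed counts per total, without TMM scaling. Scg2, Cck, Vip and Crh gave no called difference. The 3 libraries of a side are parts of 1 lysate, so the test below weighs 2 pools against technical spread and not against the spread between mice. A gene was called at a Benjamini-Hochberg adjusted p below 0.05 in edgeR's quasi-likelihood test with a log2 change beyond 1. Of the 7 members, 5 passed the filter of a mean of 1 CPM and were tested, 3 were called higher and 0 lower, where 8.85% of the 13509 genes tested were called higher and 7.1% lower. Those shares are 1196 and 961 genes, and with library size alone as the scaling they were 980 and 1264 genes, with the same number of members called. In a pool, fewer neurons that express a gene and less RNA of it per neuron cannot be told apart.

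Nts was at 1.38, 1.19 and 0 CPM in the control-side libraries and at 703, 704 and 670 CPM in the SNT-side libraries. Every SNT-side library was far above every control-side library, and the control-side values rest on 2 counts in all. The ratio of the summed counts was 734 (95% counting interval 203 to 6065), with an adjusted p of 8.89e-26 by edgeR. Adcyap1 was at 8.25, 25 and 16 CPM on the control side and at 774, 668 and 751 CPM on the SNT side. The sides were far apart here too, but unlike Nts the gene was read in every control-side library, from 36 counts in all. On the log2 scale it changed by 5.59 (SE 0.22, adjusted p = 6.85e-23, edgeR).

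Vgf was at 38.5, 38.1 and 47.9 CPM on the control side and at 161, 163 and 179 CPM on the SNT side, and the change on the log2 scale was 2.19 (SE 0.21, adjusted p = 4.21e-11, edgeR). This granin was also read on the control side, and its libraries did not overlap between the sides. Scg2, the other granin, was at 60.5, 48.9 and 103 CPM on the control side and at 99.9, 104 and 71.9 CPM on the SNT side. The sides overlapped, since the third control-side library lay between SNT-side libraries, and the log2 difference of 0.56 (SE 0.23, adjusted p = 0.0749, edgeR) was not called.

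Cck was at 2.75, 8.34 and 1.77 CPM on the control side and at 2.39, 0 and 4.49 CPM on the SNT side. With 10 and 13 counts in all, the sides overlapped and the log2 difference of -0.67 (SE 0.93, adjusted p = 0.665, edgeR) was not called. Vip was at 0 in 5 of the 6 libraries and at 2.61 CPM, from 3 counts, in the second SNT-side library. Crh was at 0 in 5 of the 6 and at 1.2 CPM, from 2 counts, in the first SNT-side library. Neither passed the filter, and at this depth no difference was detectable.

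**Figure D1:**
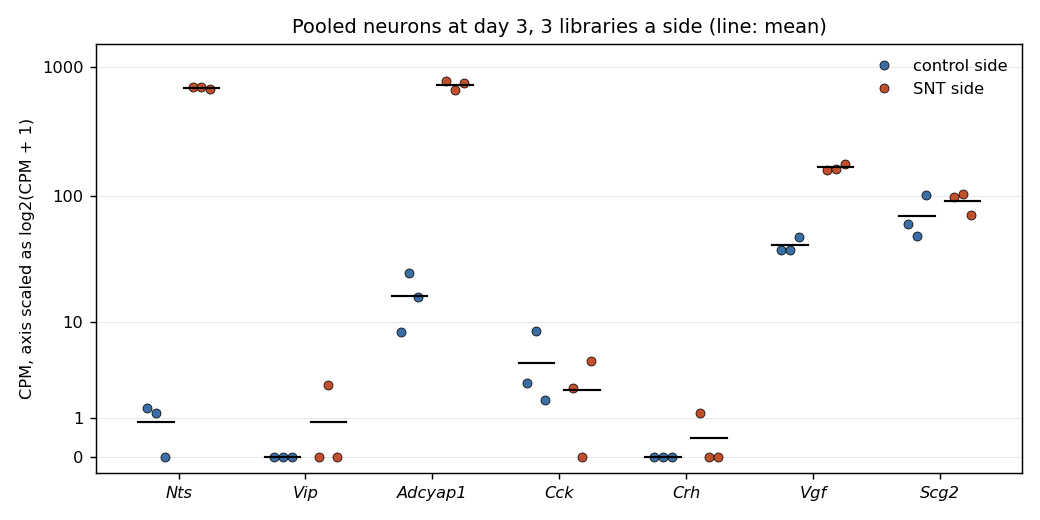
CPM of the 7 genes in each pooled library at day 3, on an axis scaled as log2(CPM + 1), with 3 control-side points (blue) and 3 SNT-side points (red) per gene and a line at the mean. The points of Nts, Adcyap1 and Vgf lie apart between the sides, and those of Scg2, Cck, Vip and Crh overlap.

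Single neurons showed how these transcripts were spread. No label names the mouse a neuron came from, so each side at each day is 1 sample, the SD is over cells, shares carry exact binomial (Clopper-Pearson) 95% intervals that cover counting error only, and no test was made across cells. At day 3, 4 of the 7 members had a mean at least 2 times as high on the SNT side on the log2(CPM + 1) scale (Nts, Adcyap1, Cck and Crh) and 1 a mean at least 2 times lower (Scg2), where 6.78% of the 13644 genes that averaged 1 CPM or more were as much higher and 6.35% as much lower. All members but Vip reached that mean. The median log2 ratio of the 7 members was 1.15, and of all those genes -0.05. For 2 members, Nts and Adcyap1, the share of neurons above 10 CPM was at least 20 percentage points higher on the SNT side, against 6.28% of the genes, and for 0 members it was as much lower, against 7.9%.

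At day 3 Nts ran from 0 through a median of 0.975 to 18.1 CPM in the 18 control-side neurons and from 0 through 208 to 2127 CPM in the 41 SNT-side neurons. On the SNT side 30 of 41 neurons lay above every control-side neuron, and 5 had no Nts count. The means were 3.6 ± 5.91 and 365 ± 450 CPM (SD over cells), a log2 ratio of 6.31. Neurotensin transcripts were above 10 CPM in 31 of 41 SNT-side neurons (75.6%, 59.7 to 87.6) and in 3 of 18 control-side neurons (16.7%, 3.58 to 41.4). Summed over cells, 58 control-side counts stood against 19636 SNT-side counts.

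Adcyap1 ran from 0 through 3.01 to 895 CPM on the control side and from 3.3 through 217 to 1883 CPM on the SNT side at day 3. It was read in every SNT-side neuron, while 5 of 18 control-side neurons had none. The means of 60.7 ± 209 and 413 ± 506 CPM gave a log2 ratio of 2.75, but 1 control-side neuron alone had 895 CPM and the next had 46.9 CPM. That neuron also had 2182 CPM of Scg2, 18006 CPM of Calca and 1696 CPM of Tac1, the highest control-side value of each. Without the highest neuron of each side the ratio was 4.89, and by medians 5.76. PACAP transcripts were above 10 CPM in 33 of 41 SNT-side neurons (80.5%, 65.1 to 91.2) and in 7 of 18 control-side neurons (38.9%, 17.3 to 64.3).

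Crh was read in none of the 18 control-side neurons and in 22 of the 41 SNT-side neurons at day 3. Its SNT-side values were low, with a median of 0.849 CPM, and 5 neurons passed 10 CPM (12.2%, 4.08 to 26.2), at 12.6, 14.1, 56.2, 56.3 and 88.1 CPM. The 368 SNT-side counts make the level at least 36.5 times higher than 3 counts over the whole control side, in a group where 0 of 18 neurons allows a share above 10 CPM of up to 18.5%. The pooled SNT-side libraries, from the same day, held 2 Crh counts.

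Cck was read in 12 of 41 SNT-side neurons and in 1 of 18 control-side neurons at day 3. The control-side neuron was at 26.3 CPM, and of the SNT-side neurons 7 passed 10 CPM (17.1%, 7.2 to 32.1), the highest at 72.4 and 23.3 CPM. The log2 ratio of the means was 1.15, the median of both sides was 0, and the share above 10 CPM on the control side was 5.56% (0.141 to 27.3), so that the intervals of the sides overlap. Vip was read in 3 of 41 SNT-side neurons, at 0.759, 4.49 and 23.1 CPM, and in 0 of 18 control-side neurons. With 1 neuron above 10 CPM (2.44%, 0.0617 to 12.9) no difference of the shares was detectable.

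The granins were read in nearly every neuron. Vgf was above 10 CPM in 40 of 41 SNT-side neurons (97.6%, 87.1 to 99.9) and in 17 of 18 control-side neurons (94.4%, 72.7 to 99.9). Its range was 1.46 to 600 CPM with a median of 65.4 on the control side and 0.728 to 492 CPM with a median of 189 on the SNT side. The sides overlapped over most of this range, and the means of 110 ± 152 and 205 ± 123 CPM gave a log2 ratio of 0.89, against 1.52 by medians and 1.27 without the highest neuron of each side.

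Scg2 was above 10 CPM in 37 of 41 SNT-side neurons (90.2%, 76.9 to 97.3) and in 16 of 18 control-side neurons (88.9%, 65.3 to 98.6) at day 3. It ran from 0.731 through 124 to 2182 CPM on the control side and from 3.78 through 69.1 to 1503 CPM on the SNT side. Here the SNT-side mean was the lower, at 156 ± 290 against 328 ± 547 CPM, a log2 ratio of -1.06 that was -0.83 by medians and also -0.83 without the highest neuron of each side. The pooled libraries gave a difference of the opposite sign, which was not called.

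**Figure D2:**
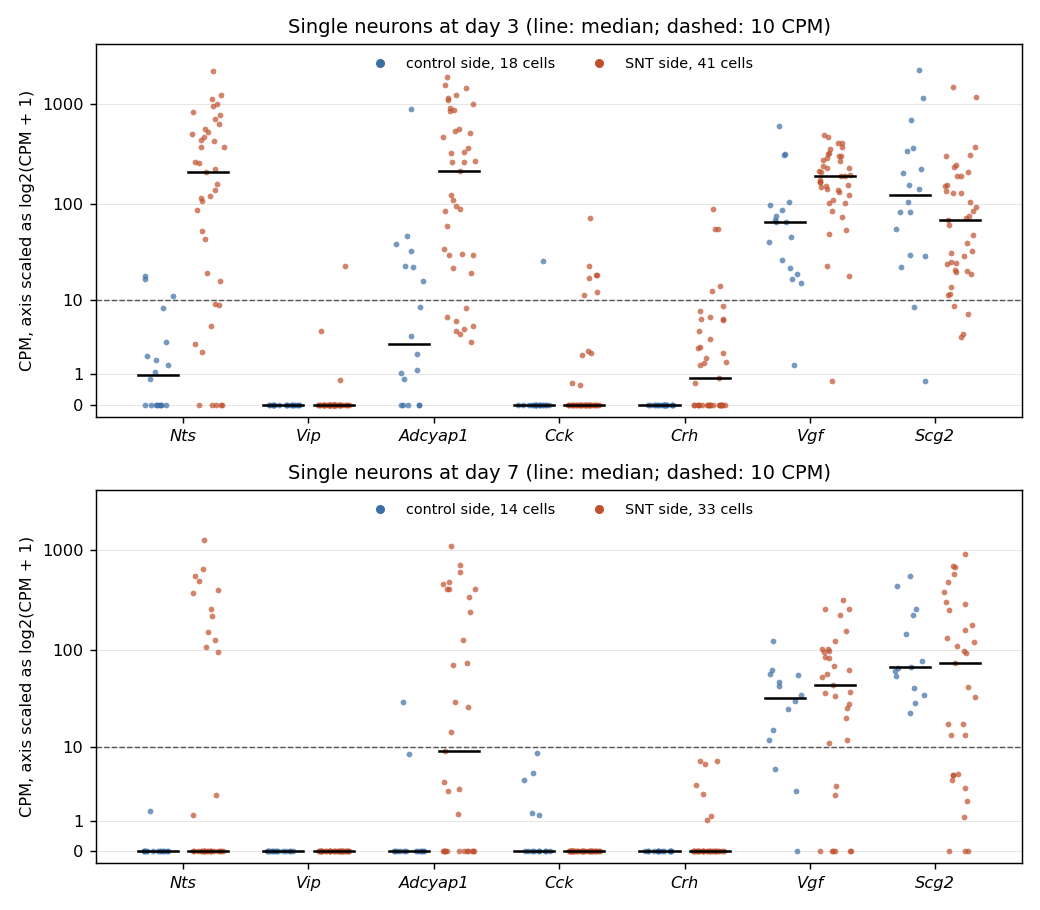
CPM of the 7 genes in each kept neuron at day 3 (upper panel) and day 7 (lower panel), on an axis scaled as log2(CPM + 1), with a line at the median and a dashed line at 10 CPM. Nts and Adcyap1 reach 2127 and 1883 CPM among SNT-side neurons (red) at day 3, and at day 7 Nts is either at most 2.63 CPM or at least 95.2 CPM.

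At day 7 the same pair of peptides stood out, in fewer neurons. Of the 7 members 2, Nts and Adcyap1, had a mean at least 2 times as high on the SNT side, against 5.99% of the 13264 genes that averaged 1 CPM or more, and 1, Cck, a mean as much lower, against 3.63%. Only Nts, Adcyap1, Vgf and Scg2 reached that mean themselves. The median log2 ratio of the 7 members was 0.90, and of all those genes -0.04. That member median is the ratio of Crh, which did not reach the mean of 1 CPM. The share above 10 CPM was at least 20 points higher for 2 members, again Nts and Adcyap1, against 5.48% of the genes, and as much lower for 1, Scg2, against 9.24%. The mice of day 7 were C57BL/6 of both sexes and those of day 3 female F1 mice, and the read length and the sequencer differed too. Day cannot be told apart from these, and the values of the days are given side by side.

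Nts was read in 1 of 14 control-side neurons at day 7, at 1.48 CPM, and 12 of 33 SNT-side neurons were above 10 CPM (36.4%, 20.4 to 54.9). These 12 neurons ran from 95.2 to 1262 CPM, while of the other 21 SNT-side neurons 19 had no count and 2 had 1.28 and 2.63 CPM. No SNT-side neuron lay between these ranges. The SNT-side mean was 143 ± 273 CPM and the control-side mean 0.105 ± 0.395 CPM, which is 1 count against 3266. The neurons with Nts had a higher median total (742948 counts) than those without (513059), and with every cell thinned to 200000 counts the share above 10 CPM was again 36.4% on the SNT side and 0% on the control side.

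Adcyap1 ran from 0 to 29.6 CPM in the control-side neurons at day 7, of which 12 of 14 had none, and from 0 through 8.83 to 1102 CPM in the SNT-side neurons. It was above 10 CPM in 16 of 33 SNT-side neurons (48.5%, 30.8 to 66.5) and in 1 of 14 control-side neurons (7.1%, 0.181 to 33.9). The means were 168 ± 270 and 2.71 ± 8.05 CPM, a log2 ratio of 5.51. The log2 ratio was 5.57 in neurons of female and 5.45 in neurons of male mice, and that of Nts was 7.76 and 5.97.

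Vgf did not stand apart at day 7. It ran from 0 through 32.6 to 123 CPM on the control side and from 0 through 44.5 to 322 CPM on the SNT side. The shares above 10 CPM were 78.6% (49.2 to 95.3) and 75.8% (57.7 to 88.9), and the log2 ratio of the means was 0.97. Of the SNT-side neurons, 5 of 33 lay above every control-side neuron and the others within the control-side range.

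Scg2 was above 10 CPM in 14 of 14 control-side neurons (100%, 76.8 to 100) and in 23 of 33 SNT-side neurons (69.7%, 51.3 to 84.4) at day 7. The control side ran from 22.6 through 66.9 to 551 CPM and the SNT side from 0 through 74.5 to 931 CPM. SNT-side neurons thus lay at both ends, with 14 below every control-side neuron and 4 above, and the log2 ratio of the means was 0.24. The difference of the shares came inside 20 points in neurons of male mice (100% and 82.4%), at a level of 1 CPM (100% and 90.9%) and at a level of 50 CPM (71.4% and 51.5%). By sex the ratio was -1.30 in female and 1.36 in male mice, a difference that was not tested. In the same neurons Atf3 was above 10 CPM in 10 of 16 SNT-side neurons of female and 6 of 17 of male mice, and Calca in 3 of 16 and 10 of 17. Over both sexes 12 of these Atf3 neurons were above every control-side neuron (29 CPM). The others were at 12.1 to 13.9 CPM, within the control-side range. The part of Atf3 and Calca in the Scg2 difference was not tested.

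The remaining members were at or near 0 at day 7. Vip had no count in any of the 47 neurons, and Crh was read in 7 of 33 SNT-side neurons, none above 6.96 CPM, and in none of the 14 control-side neurons. Cck was read in 5 of 14 control-side neurons, none above 8.59 CPM, and in none of the 33 SNT-side neurons. The 16 control-side Cck counts make the SNT side at least 9.96 times lower, against 3 counts over the group, at levels at which no neuron passed 10 CPM on either side. Its log2 ratio of -1.30 came inside the 2-fold limit without the highest neuron of each side (-0.93), with cells thinned to 200000 counts (-0.78), in neurons of male mice (-0.98) and by medians (0).

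**Figure D3:**
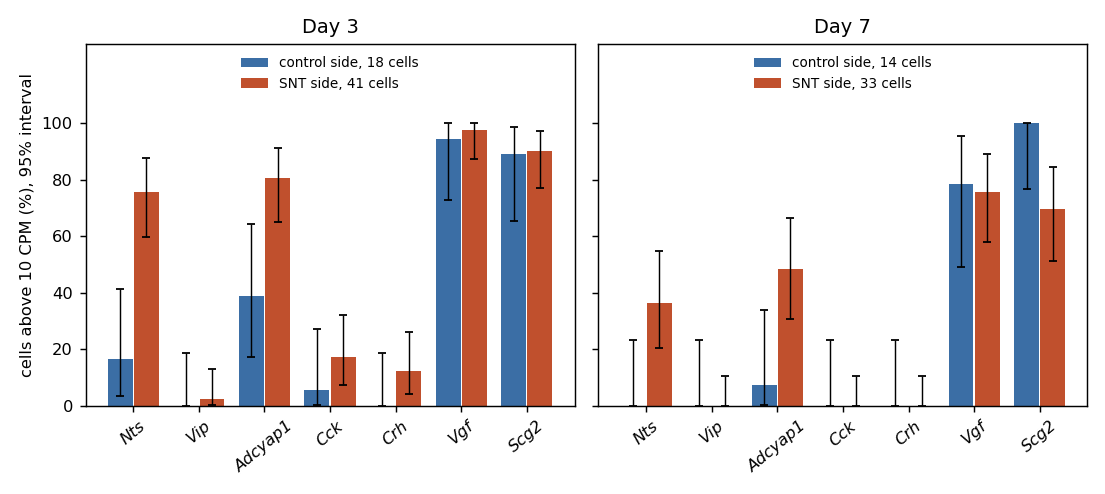
Percent of kept neurons above 10 CPM for each gene on the control side (blue) and the SNT side (red) at day 3 and day 7, with exact binomial 95% intervals as error bars. The intervals of the sides are apart for Nts and Adcyap1 at day 3 and overlap for both at day 7. The share of Scg2 at day 7 is lower on the SNT side (69.7% against 100%), with intervals that overlap too.

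Atf3 split the SNT-side neurons without intermediate levels, into values of at most 23.04 or at least 951 CPM at day 3 and of at most 13.9 or at least 704 CPM at day 7, and the members were read against it neuron by neuron. At day 3, 30 of 41 SNT-side neurons had Atf3 above the highest control-side neuron (75.7 CPM), and at day 7, 12 of 33 did (above 29 CPM). These are joint counts over neurons of 1 sample and carry no test. Nts and Atf3 went together, as 29 of the 31 neurons with Nts above 10 CPM at day 3 were above that Atf3 level and 12 of 12 at day 7. Only 1 neuron at day 3 and 0 at day 7 had Atf3 above the level and Nts not above 10 CPM. The neuron of day 3 had 1349 CPM of Atf3, 17962 CPM of Gal, 110 CPM of Adcyap1 and no Nts count.

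Adcyap1 was above 10 CPM in all 30 neurons above the Atf3 level at day 3 and in 3 of the other 11. At day 7 it was above 10 CPM in 11 of 12 and in 5 of the other 21. All 5 neurons with Crh above 10 CPM at day 3 were above the Atf3 level, as was the 1 with Vip, whereas of the 7 with Cck 5 were and 2 were not. Vgf was above 10 CPM in every neuron above the level on both days and also in 10 of the other 11 at day 3 and 13 of the other 21 at day 7.

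Scg2 ran the other way at day 7. It was above 10 CPM in 3 of the 12 neurons above the Atf3 level and in 20 of the other 21, and at day 3 in 26 of 30 and 11 of 11. Spearman's rho with Atf3 across SNT-side neurons was -0.24 at day 3 (41 neurons) and -0.70 at day 7 (33 neurons) for Scg2, 0.56 and 0.83 for Nts, 0.45 and 0.71 for Adcyap1, and 0.32 and 0.12 for Vgf. These correlations describe cells that share their mice, and depth differs among them. At day 7 Calca was above 10 CPM in 2 of the 12 neurons above the Atf3 level and in 11 of the other 21. The part of neuron class in the Scg2 values was not tested.

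**Figure D4:**
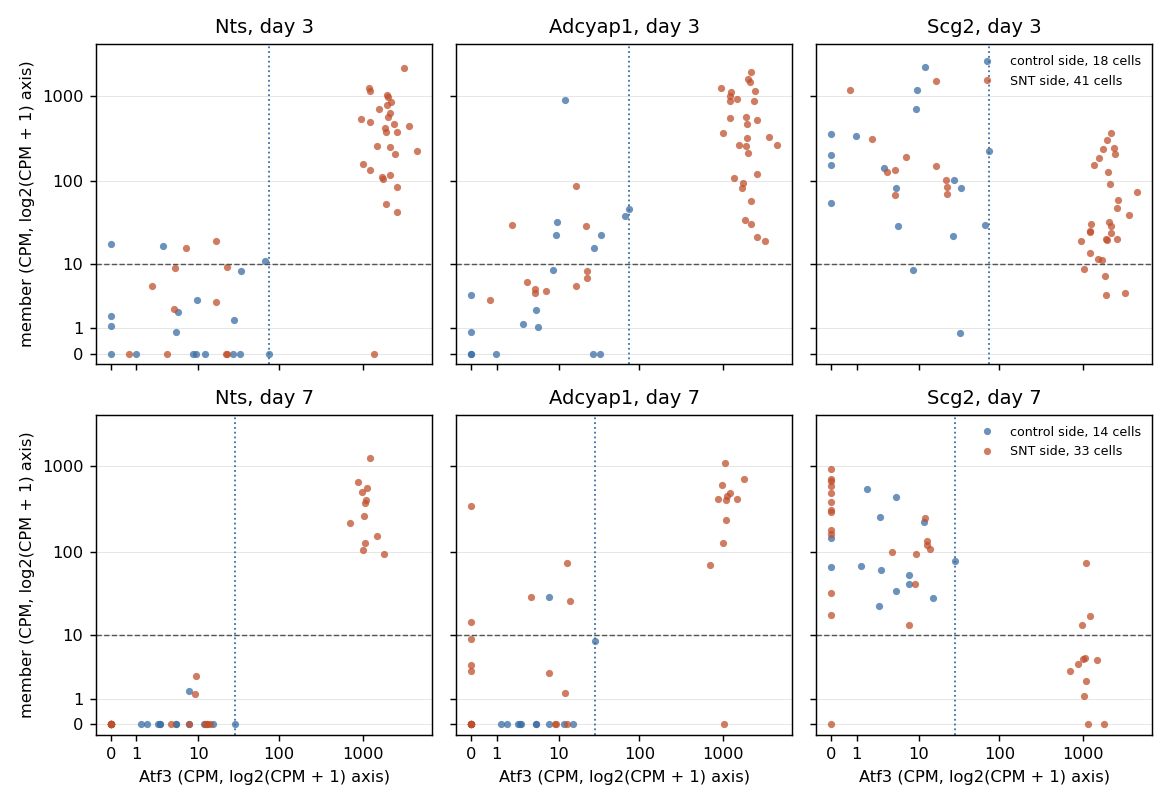
Level of Nts, Adcyap1 and Scg2 against that of Atf3 in each kept neuron at day 3 (upper row) and day 7 (lower row), all in CPM on log2(CPM + 1) axes, with a dashed line at 10 CPM and a dotted line at the highest control-side Atf3. SNT-side neurons (red) right of the dotted line are high in Nts, 29 of 30 above 10 CPM at day 3 and 12 of 12 at day 7, and at day 7 low in Scg2, 3 of 12 above 10 CPM.

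Nts and Adcyap1 were mostly read in the same SNT-side neurons. Both were above 10 CPM in 29 neurons at day 3, Nts alone in 2, Adcyap1 alone in 4 and neither in 6, and at day 7 the numbers were 11, 1, 5 and 16. Within these neurons the levels were not in step throughout. The neuron with most Nts at day 3 (2127 CPM) had 19.4 CPM of Adcyap1, and the neuron with most Adcyap1 (1883 CPM) had 838 CPM of Nts. Spearman's rho of the pair was 0.61 at day 3 and 0.64 at day 7.

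Of the known injury peptides, Npy was nested within the neurons with Nts. All 18 neurons with Npy above 10 CPM at day 3 and all 11 at day 7 had Nts above 10 CPM, while 13 and 1 neurons had Nts without Npy. Gal was not nested in this way at the same level, with 27 neurons above 10 CPM for both at day 3, 4 for Nts alone and 6 for Gal alone, and 6, 6 and 2 at day 7. Of the 6 with Gal alone at day 3, 1 had 17962 CPM of Gal. The others had 10.2 to 80.2 CPM, within the control-side range, which reached 164 CPM. On the control side at day 3 Gal was above 10 CPM in 8 of 18 neurons and Npy in 0 of 18. Scg2 went with Calca, with a rho of 0.68 at day 3 and 0.63 at day 7 across SNT-side neurons, and against Npy, with a rho of -0.60 and -0.63.

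Neurotensin marks a class of itch-related C-fibre neurons in uninjured DRG that also express Sst, Nppb and the interleukin 31 receptor gene Il31ra, and the Nts neurons here were read for these genes. Sst was above 10 CPM in 0 of the 41 SNT-side neurons at day 3 and in 0 of the 33 at day 7, and Nppb in 1 at day 3, which also had Nts, and in 0 at day 7. Il31ra, unlike these, was above 10 CPM in 28 of 41 SNT-side and 2 of 18 control-side neurons at day 3 and in 5 of 33 and 0 of 14 at day 7. Nts was above 10 CPM in 25 of those 28 SNT-side neurons and in 6 of the other 13 at day 3, and in 4 of the 5 and 8 of the other 28 at day 7. At day 3 Nts was above 10 CPM in 18 of the 27 SNT-side neurons with P2rx3, a marker of nonpeptidergic nociceptors, in 23 of the 32 with Calca, in 22 of the 32 with Ntrk2 and in 9 of the 9 with Pvalb, a marker of proprioceptors, each at the same level. Adcyap1 was above it in 20, 25, 25 and 9 of the same neurons. Among the neurons without P2rx3, Calca, Ntrk2 and Pvalb in turn, Nts was above it in 13 of 14, 8 of 9, 9 of 9 and 22 of 32, and Adcyap1 in 13, 8, 8 and 24. Of the 6 neurons with Tac1, 1 had Nts and 3 had Adcyap1, and of the 35 without it 30 had Nts and 30 had Adcyap1. At day 7 Nts was above 10 CPM in 1 of the 10 neurons with P2rx3, in 2 of the 13 with Calca, in 10 of the 26 with Ntrk2 and in 7 of the 17 with Pvalb. In the neurons without these markers in turn it was above it in 11 of 23, 10 of 20, 2 of 7 and 5 of 16. The marker groups of both days take in neurons above the Atf3 level and neurons not above it. Of the neurons with Nts not above 10 CPM at day 3, 1 was above the Atf3 level and 9 were not. At day 7 these numbers were 0 and 21. The part of this in the marker counts was not tested. Of the 12 neurons above the Atf3 level at day 7, 2 had Calca above 10 CPM, and these 2 had Nts. The authors classed most Atf3-positive neurons of that day as large myelinated, so few injured nociceptors stand behind these counts.

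Likeness was measured as Spearman's rho across the 59 kept neurons of both sides at day 3, among 10694 genes above 10 CPM in at least 10 of them, with the 47 neurons of day 7 beside. The genes most like Nts were Rhoq, a small GTPase (0.81, and 0.69 at day 7), Laptm4a, a lysosomal membrane protein (0.78 and 0.72), and Cryba2, a crystallin (0.77 and 0.66). Those most like Adcyap1 were Sema6a, a transmembrane semaphorin, Esd, an esterase, and Clic4, an intracellular chloride channel, at 0.85, 0.84 and 0.84, and at 0.49, 0.39 and 0.19 at day 7. At day 7 the rho thus lay between 0.66 and 0.72 for the genes most like Nts and between 0.19 and 0.49 for those most like Adcyap1.

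For Scg2 the genes most alike were Calca (0.74 and 0.67) and Oprm1, the mu opioid receptor (0.73 and 0.76). For Vgf they were Plod3, a lysyl hydroxylase (0.86 and 0.57), Gadd45g, a stress-response gene (0.68 and 0.41), and Gpr158, an orphan receptor (0.67 and 0.20). Plod3 and Vgf are near neighbours on chromosome 5, with 2 genes between them in RefSeq. Vip, Cck and Crh were above 10 CPM in too few neurons, 1, 8 and 5, to be compared. Rhoq, Plod3, Gpr158 and Oprm1 overlap other genes in RefSeq, as Adcyap1, Cck and Crh overlap long noncoding genes that the tables do not list. No source says that reads were counted by strand, so reads of such pairs cannot be told apart.

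Among the receptors and binding partners of these peptides, 7 of 11 genes passed the filter in pooled neurons, 3 were called higher on the SNT side and 0 lower (edgeR, Benjamini-Hochberg), where 8.85% and 7.1% of all tested genes were. Both cholecystokinin receptors were among them, although the pools held little Cck. Cckar was at 13.8, 35.6 and 23.1 CPM on the control side and at 130, 126 and 170 CPM on the SNT side, which is 2.68 on the log2 scale (SE 0.26, adjusted p = 5.82e-11, edgeR). Cckbr was at 0 in all control-side libraries and at 13.2, 11.3 and 17 CPM in the SNT-side libraries (adjusted p = 1.68e-05, edgeR). In single neurons Cckbr was above 10 CPM in 61.0% of SNT-side and 0% of control-side neurons at day 3 and in 27.3% and 0% at day 7, and Cckar in 39% and 22.2% at day 3 and 42.4% and 7.1% at day 7. Sort1, the sortilin that binds neurotensin, rose from 12.4, 15.5 and 16 to 30.5, 27.9 and 33.9 CPM, or by 1.24 on the log2 scale (SE 0.35, adjusted p = 0.00732, edgeR), which was also the median of the 7 genes. In single neurons the mean of Sort1 was 18.1 CPM on the control side and 15.8 CPM on the SNT side at day 3 (log2 ratio -0.19) and 21.5 and 40.2 CPM at day 7 (0.87). The PACAP receptor Adcyap1r1 had 0 to 3.55 CPM in the 6 libraries, and the VIP receptors Vipr1 and Vipr2 were at 0 in all of them.

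Of 9 genes that cut or modify the precursors, 1 was called higher in pooled neurons and 0 lower, beside 8.85% and 7.1% of all genes, with a median log2 change of 0.07 against 0.02 over all genes, and 1 of 9 is close to that background. The called gene was Pcsk1, prohormone convertase 1, which went from 20.6, 27.4 and 24.8 to 75.3, 70.5 and 68.4 CPM, or by 1.70 on the log2 scale (SE 0.27, adjusted p = 3.25e-06, edgeR). In single neurons its mean was 30.6 CPM on the control side and 49.5 CPM on the SNT side at day 3 (log2 ratio 0.68), and at day 7 it was the lower on the SNT side, at 88.2 and 54.7 CPM (-0.68). The related convertase Pcsk2 was lower on the SNT side, by a log2 change of -0.56 that passed the limit on p (0.00435, edgeR, adjusted) but not on size. Of 15 dense-core vesicle genes, 14 were tested, 1 was called higher and 3 lower, beside the same background shares, with a median of 0.05. A count of 1 of 14 higher is close to the background. That gene was Ptprn, a membrane protein of the vesicle (1.96), and the 3 lower were Scg3 (-1.73), a granin, Syt7 (-1.05), a calcium sensor of exocytosis, and Rab27b (-3.59), a GTPase of vesicle docking. In single neurons the log2 ratios at day 3 and day 7 were 0.40 and 0.55 for Ptprn and -1.05 and -0.85 for Scg3. They were -1.64 and -1.05 for Rab27b, while Syt7 was lower at day 3 (-1.05) and higher at day 7 (0.55) on the SNT side.

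Set beside the peptides best known in axotomy, Nts and Adcyap1 moved as Gal and Npy did in the pools. Gal went from 5.50, 8.34 and 12.4 to 3876, 4323 and 4447 CPM and Npy from 0, 3.58 and 5.32 to 607, 758 and 941 CPM, and both were called higher (adjusted p = 1.05e-31 and 1.56e-23, edgeR). Calca was lower without passing the limit on size (-0.85, adjusted p = 5.9e-07, edgeR), and Tac1 went from 49.5, 25 and 44.4 CPM to 0, 0 and 0.499 CPM and was called lower (adjusted p = 4.31e-10, edgeR). Glial markers moved with the sides in the same libraries, with summed levels of 12636 to 15313 CPM on the control side and 6156 to 6951 CPM on the SNT side for 10 of 10 markers, and so did those of nonpeptidergic nociceptors, at 2752 to 2879 and 422 to 496 CPM for 5 markers, and of C-fibre low-threshold mechanoreceptors, at 389 to 533 and 65.8 to 121 CPM for 3 markers. Those of peptidergic nociceptors, a list of 5 that holds Gal, were at 1797 to 2196 CPM on the control side and 4838 to 5544 CPM on the SNT side. Most of that SNT-side sum was Gal itself, at 3876, 4323 and 4447 CPM, while Calca and Tac1 of the same list were lower there. The part of these marker changes in the pooled differences of the members was not tested.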

How the data were processed

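Neurons and pooled neurons of mouse DRG were sequenced by the authors, who demultiplexed the reads with CASAVA 1.8.2, aligned them to mm9 with Bowtie2 and estimated abundances with RSEM on RefSeq exons without ribosomal RNA, as their methods and the labels' processing notes state. The tables the authors deposited are named TPM but hold expected counts: their column totals differ and most values are whole. The 11 cells that the authors removed as outliers, all of day 3, were left out of the comparisons, and 106 of 117 cells were kept. All 6 pooled libraries carry the word intact in a label, and their side was taken from the column name.

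Values were scaled to CPM by column totals. For the pooled libraries expected counts were rounded, which moved a total by at most 0.00757%, and tested with edgeR 4.0.16 (R 4.3.3) by the quasi-likelihood test after TMM scaling, over genes averaging 1 CPM or more, with Benjamini-Hochberg adjustment. The SE is the log2 change divided by the root of F. The script was tested on simulated data. DESeq2 1.42.0 and limma 3.58.1 were alternatives. Cells were compared by the log2 ratio of mean CPM + 1 and by shares above 10 CPM with scipy 1.17.1. Intervals and floors of 3 counts cover counting error only, since reads carry no molecular identifiers. The genes named are the 7 members, for each member the 3 most alike genes (of which 1 is not reported here), marks and peptides of injury, and the called members of lists of receptors, processing enzymes and vesicle proteins. A few others (Pcsk2, Adcyap1r1, Vipr1 and Vipr2) were named after their values were seen. Members and lists were chosen with earlier results of these data known. RefSeq promoters on GRCm38.p6 matched 5 of the 7 members, and those of Crh and Vgf were not used here.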

Additional observations from a re-analysis of the deposited data

Results flagged for a closer look

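The 7 SNT-side cells that the authors removed as outliers at day 3 were outside the comparisons, and in them Nts reached 220.5 CPM. In 3 of the 7 it was above the highest of all control-side cells, removed ones included (21.5 CPM). In the same 7 cells Crh reached 2.49 CPM, in 1 cell, where no control-side cell had a count. Adcyap1 was above 10 CPM in 4 of these 7 cells and in 4 of the 4 removed control-side cells.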

How the results depend on the processing

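In pooled neurons Nts, Adcyap1 and Vgf were called higher and 0 members lower under all settings tried: DESeq2, other size factors, library size alone, limma, other filters, the replicate block, and without each library in turn (3 to 3 members). Over all genes the calls higher and lower were 1196 and 961, but 980 and 1264 with library size alone, where the median over all genes was -0.14 on the log2 scale, against 0.02, and the changes of Nts, Adcyap1 and Vgf were 9.37, 5.43 and 2.03, and 1010 and 1094 with limma. Same-numbered libraries did not deviate together (r from -0.02 to 0.06), so the numbers pair nothing, and with the replicate block 3 members were called and 1137 and 872 genes. Without 1 library at a time, the uncalled log2 difference of Cck ran from -1.51 to 0.27, turning positive without the second control-side library (adjusted p = 0.91, edgeR), as 7 of its 10 control-side counts were there. The uncalled Scg2 had adjusted p from 0.00969 to 0.332 over the alternatives (edgeR, DESeq2 or limma).

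In single neurons at day 7 the members with a level at least 2 times higher were 2 by means, 1 by medians (Adcyap1, as 19 of 33 SNT-side neurons had no Nts) and 4 in neurons of male mice (Nts, Adcyap1, Vgf and Scg2). With cells thinned to 200000 counts it was 3, with Crh beside Nts and Adcyap1. The other counts of members higher by a limit were within 1.5 times the value given. Of the members that were lower, Scg2 at day 3 and 7 and Cck at day 7 came inside their limit under some alternatives, as given with their values. Beyond these, with no mouse named and 1 lysate a side, no value here measures the spread between mice, and depth limits Vip, Cck and Crh most.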
